A study of Drosophila melanogaster with 3 samples.

Results

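Complex I (NADH:ubiquinone oxidoreductase) genes are named in the fly annotation with the prefix ND-, and all 40 protein-coding genes of Drosophila melanogaster with that prefix were examined, of 13945 protein-coding genes on the 6 chromosome arms. Achintya (achi) is a homeodomain protein of the TGIF class, a family whose members recognise the word TGACAG. Its binding was measured by chromatin immunoprecipitation and sequencing (ChIP-seq) in whole prepupae of a transgenic line that stably carries an achi-eGFP fusion, the tag at the C-terminus, males and females together, with an anti-GFP antibody. The single group held 3 biological replicates of this genotype and stage, each with 30000 ranked regions in dm6 coordinates, and the authors' optimal list held 8998 peaks. Read depth is unknown, no flies without the tag were analysed here, and no comparison of conditions or test between groups exists. Bound genes are those with an optimal summit no more than 500 bp from an annotated transcription start site (TSS). Fragments of 200 to 800 bp, per the labels, do not separate starts that lie close together. Prepupae were taken whole, so binding could not be assigned to a tissue.

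Complex I is the entry point of electrons from NADH into the mitochondrial respiratory chain and the largest of its enzymes. Its matrix arm holds the module that oxidises NADH and the module that passes electrons to ubiquinone, and its membrane arm pumps protons. The nuclear genes treated here encode the matrix arm and the accessory subunits of the membrane arm, while the proton-pumping core of the membrane arm is encoded in mitochondrial DNA. Roles are given by homology to the mammalian enzyme.

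Achi-eGFP peaks lay at the promoters of 16 of the 40 complex I genes (40%), against 23.2% of all protein-coding genes. The genes for the NADH-oxidising module and the membrane arm held all but 1 of these peaks, and none of the 8 genes of the quinone-reducing module held one. ND-51, which encodes the subunit that binds NADH and flavin mononucleotide (NDUFV1 in mammals), ranked 11 by signal among the 8998 optimal peaks. Among the 250 strongest peaks, 5 of the 40 complex I genes were represented (12.5%), against 1.82% of all protein-coding genes. Each of these 5 promoters held TGACAG within 100 bp of its summit. Among all protein-coding genes in the 250 strongest peaks, 107 held the word there and 147 did not.

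The promoter stretches of these 5 genes show where the word lies, and they are printed because they carry the strongest complex I peaks. Each is read 5′ to 3′ on the strand of its gene from the RefSeq Release 6 genome, with TGACAG or its reverse complement CTGTCA in capitals. The stretches are chr2L:6062692-6062819 on the minus strand for ND-51, chrX:15063857-15063961 on the plus strand for ND-B18 and chrX:8251645-8251749 on the minus strand for ND-75. ND-B22 is shown over chr2L:13370984-13371088 and ND-13A over chr2L:5100160-5100324, both on the minus strand.
ND-51: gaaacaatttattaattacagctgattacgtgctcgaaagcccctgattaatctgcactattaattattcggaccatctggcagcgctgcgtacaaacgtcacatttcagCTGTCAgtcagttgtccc
ND-B18: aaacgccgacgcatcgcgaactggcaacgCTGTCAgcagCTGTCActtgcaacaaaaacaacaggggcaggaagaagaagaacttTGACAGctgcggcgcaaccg
ND-75: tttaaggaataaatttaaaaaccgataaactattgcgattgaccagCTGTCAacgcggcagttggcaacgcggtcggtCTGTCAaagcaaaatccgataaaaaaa
ND-B22: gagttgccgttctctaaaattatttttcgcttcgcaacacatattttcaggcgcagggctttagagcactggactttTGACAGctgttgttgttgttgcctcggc
ND-13A: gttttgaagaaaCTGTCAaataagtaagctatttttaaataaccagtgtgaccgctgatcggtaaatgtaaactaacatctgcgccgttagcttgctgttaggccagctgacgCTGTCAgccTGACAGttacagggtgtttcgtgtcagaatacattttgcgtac

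ND-B18 and ND-13A held the word 3 times each, ND-75 held it 2 times, and ND-51 and ND-B22 held it once. In ND-13A a copy on each strand stood side by side, separated by the letters gcc, across its inner annotated start. In ND-51, ND-B18, ND-75 and ND-B22 at least 1 copy ran on into TGACAGCTG, a longer word that was picked after these hits were seen.

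A second set shows promoters in which word and peak did not go together, or in which a gene and its copy differ. ND-24 (chrX:17632222-17632366, plus strand) was bound and held the word, but more than 100 bp from its summit. Its copy ND-24L (chr3L:17320769-17320873, minus strand) was not bound and lacked the word in the stretch shown. ND-15 (chr2L:155273-155377, plus strand) and ND-39 (chr3L:20495285-20495389, plus strand) held the word and had no optimal peak.
ND-24: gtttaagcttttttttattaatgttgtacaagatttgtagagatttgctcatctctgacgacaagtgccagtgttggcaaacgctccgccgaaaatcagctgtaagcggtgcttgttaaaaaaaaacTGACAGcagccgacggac
ND-24L: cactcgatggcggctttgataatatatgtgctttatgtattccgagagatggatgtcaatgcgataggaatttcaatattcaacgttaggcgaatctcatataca
ND-15: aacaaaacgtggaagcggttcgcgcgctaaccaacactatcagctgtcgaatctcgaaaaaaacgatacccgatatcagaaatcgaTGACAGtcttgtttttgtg
ND-39: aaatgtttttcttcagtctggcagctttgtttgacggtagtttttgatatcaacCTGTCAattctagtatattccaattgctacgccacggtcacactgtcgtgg

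The subunits that take electrons from NADH had peaks at 5 of 7 genes. All 3 core genes of this module, those with a counterpart in the bacterial enzyme, were bound. The ND-51 (FBgn0031771) peak, chr2L:6062474-6063093, ranked 16, 10 and 13 in replicates 1, 2 and 3, with its summit 20 bp upstream of the start. It was thus near the top of every replicate's list, at a mean percent rank of 99.96 ± 0.01 (SD, n = 3), where 100 is the strongest of the 30000 regions. ND-75 (FBgn0017566), an iron-sulphur subunit (NDUFS1), ranked 44 in the optimal list and 47, 33 and 55 in the replicates, its summit 28 bp upstream of the start. Its replicate summits fell within 3 bp of each other, the tightest of the bound complex I genes. ND-24, an iron-sulphur core subunit (NDUFV2), ranked 873 and, in the replicates, 890, 952 and 874. Its summit lay 87 bp upstream of its nearest annotated start.

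Of the accessory genes of the NADH-oxidising module, ND-13A (FBgn0031684), a zinc-binding subunit (NDUFS6), ranked 113 in the optimal list and 110, 117 and 131 in the replicates. ND-B8 (NDUFA2) ranked 6435, the weakest bound complex I peak. Its ranks of 4287, 9123 and 6696 differed 2.13-fold, more than those of any other bound complex I gene, and its replicate summits spread over 239 bp. ND-18 (NDUFS4) had no region within 500 bp of a start in any list. ND-B17.2 (NDUFA12) had only low-ranked regions, at 17592 in replicate 1 and 15729 in replicate 2.

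None of the 8 genes of the quinone-reducing module had an optimal peak. Its core genes include ND-30 (NDUFS3) and the iron-sulphur subunits ND-20 (NDUFS7) and ND-23 (NDUFS8), and 0 of 4 core genes were bound here, against 3 of 3 in the NADH-oxidising module. The accessory genes ND-13B, ND-39, ND-B14 and ND-B14.5A were not bound either. Within 500 bp of a start, 6 of the 8 had no region in any of the lists, against 63.3% of all unbound genes. ND-30 had a region at rank 11740 in the pooled list and at 5473, 13731 and 15886 in the replicates, with the pooled summit nearer to CG15812. ND-13B had 1 region, at rank 24649 in replicate 2. The nearest optimal summit to ND-39 lay 896 bp from its start, so a window of 1000 bp counts this gene as bound. A difference between the 2 modules was not tested.

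**Figure D1:**
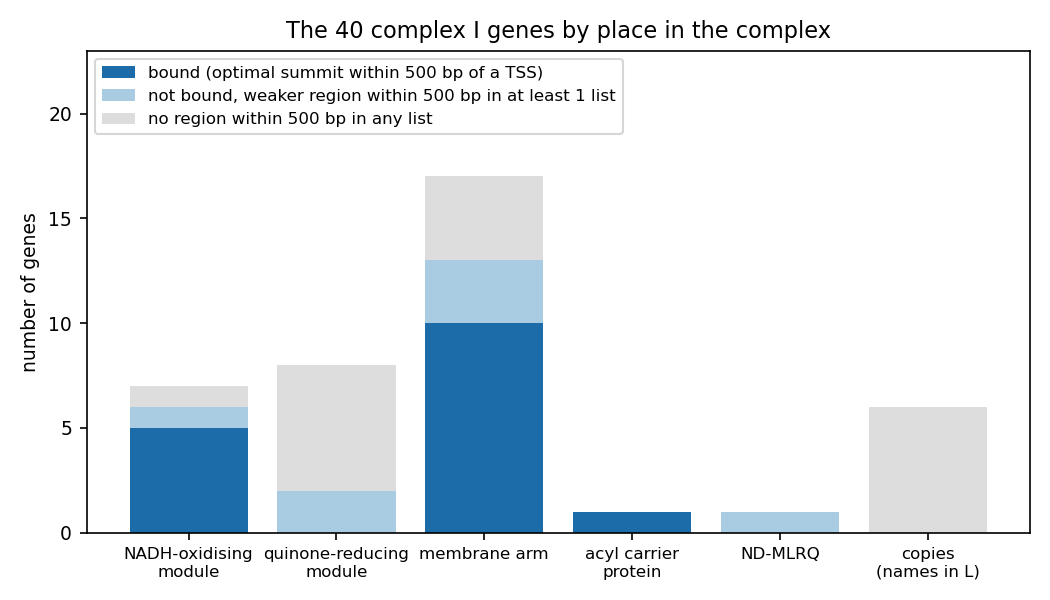
Number of complex I genes by place in the complex (horizontal axis), divided into those bound, those with a weaker region within 500 bp of a start in at least 1 list, and those with no region in any list. The bound genes number 5 of 7 in the NADH-oxidising module, 0 of 8 in the quinone-reducing module, 10 of 17 in the membrane arm and 0 of 6 among the copies.

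In the membrane arm 10 of 17 accessory genes were bound, and their peaks spread over a wide range of strength. ND-B18 (FBgn0030605, NDUFB7), whose product faces the intermembrane space, led with rank 23 in the optimal list and 22, 23 and 26 in the replicates. Its peak covered chrX:15063586-15064186, with the summit 34 bp upstream of the nearest annotated start. ND-B22 (FBgn0032511, NDUFB9), a subunit of the LYR-motif family, followed at 111, with 105, 112 and 140 in the replicates. Both held their rank closely, with percent ranks of 99.92 ± 0.00694 for ND-B18 and 99.61 ± 0.0617 for ND-B22 (SD, n = 3).

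The next pair was ND-B15 (NDUFB4), which ranked 388 in the optimal list and 362, 336 and 482 in the replicates, and ND-ASHI (NDUFB8), which ranked 428 and, in the replicates, 404, 520 and 412. ND-19 (NDUFA8), facing the intermembrane space, ranked 937, with 770, 996 and 1195 in the replicates. These 3 ranked below ND-B22 in every replicate. Further down stood ND-MWFE (NDUFA1) with ranks of 1214, 1749 and 1422 in the replicates, and ND-42 (NDUFA10) with 1379, 1896 and 2240. ND-SGDH (NDUFB5) ranked 1529, 2357 and 2991, and ND-MNLL (NDUFB1) ranked 2028, 2061 and 2694. ND-MWFE ranked above ND-42, and ND-42 above ND-SGDH, in every replicate, while the order of ND-SGDH and ND-MNLL changed between replicates. ND-B16.6, the homolog of mammalian GRIM-19 (NDUFA13), came last with 4138, 4287 and 5348.

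Membrane-arm genes without an optimal peak were ND-15, ND-B14.5B, ND-AGGG, ND-B12, ND-B14.7, ND-B17 and ND-PDSW. Of these 7, 4 had no region in any list, against 63.3% of all unbound genes. ND-15 (NDUFS5) came nearest to the limit of the optimal list, with rank 9703 in the pooled list and a summit 11 bp upstream of its start. Its replicate ranks were 6482, 11809 and 16618, so it passed rank 8998 in replicate 1 alone. ND-B14.5B ranked 14484 in the pooled list and 20092, 21137 and 9509 in the replicates. ND-AGGG had 1 region, at 25634 in replicate 3. The peaks on either side of the limit were thus ND-B8 at 6435 and ND-15 at 9703.

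The mitochondrial acyl carrier protein gene ND-ACP, whose product is bound by complex I and also serves fatty acid synthesis, was bound at rank 1537, with 1604, 1475 and 1908 in the replicates. ND-MLRQ, homolog of mammalian NDUFA4 and now placed with complex IV, was not bound and ranked 25635 in the pooled list and 21824, 24808 and 18522 in the replicates. The 6 genes whose names end in L, or in L with a number, are copies of other subunit genes, among them ND-20L, ND-24L, ND-51L1, ND-51L2 and ND-B14.5AL. None of them had a region within 500 bp of a start in any list. ND-51 and ND-24 were bound while their copies were not. Without the copies, 16 of 34 genes were bound (47.1%). Copies were not removed from the 23.2% of all protein-coding genes or the 33.3% of genes of complexes II to V, so the 47.1% has no like background. Of all 24 complex I genes without an optimal peak, 17 had no region in any list (70.8%), against 63.3% of all unbound genes. Their nearest optimal summits lay 896 to 1036364 bp away, with a median of 6676 bp. The complex I genes NdufA3 and NdufV3, whose names lack the prefix, were not bound.

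**Figure D2:**
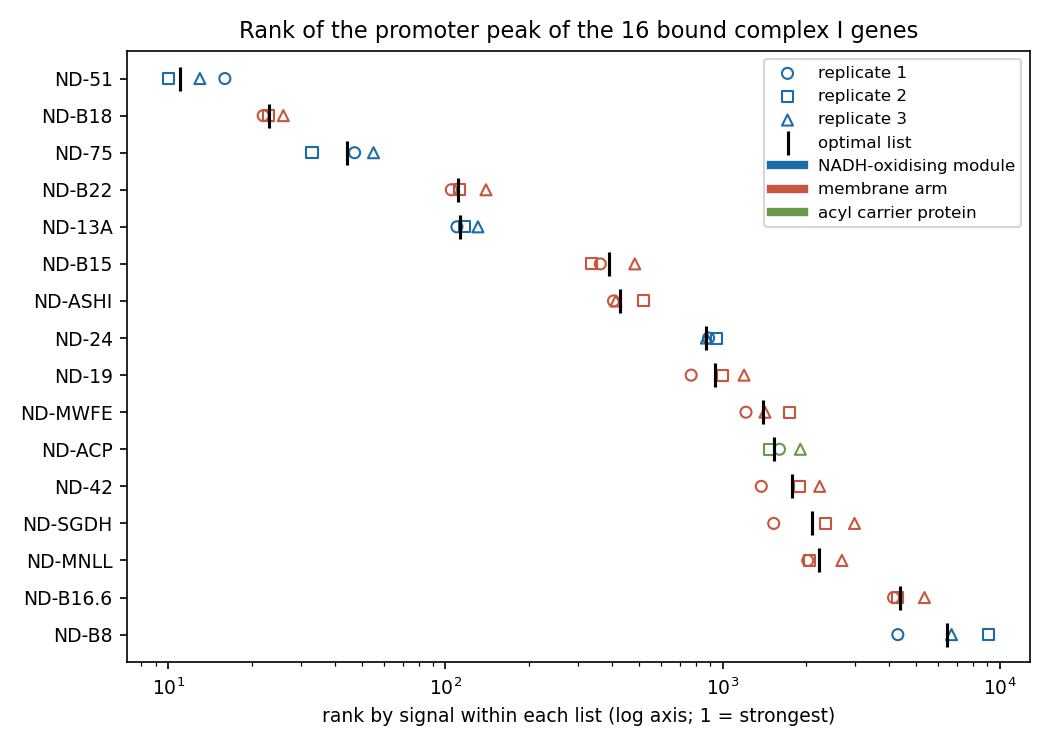
Rank by signal (horizontal log axis, 1 = strongest) of the promoter peak of each of the 16 bound complex I genes, in replicates 1, 2 and 3 (open symbols) and in the optimal list (black bars). Colours mark the place of the subunit; ND-51 sits between 10 and 16 in all 3 replicates, and ND-B8 spreads from 4287 to 9123.

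The replicates gave nearly the same set of complex I genes. Taking the 8998 strongest regions of each list, 18 complex I genes (45.0%) had a summit within 500 bp in replicate 1, against 26.6% of all protein-coding genes. In replicate 2 there were 15 (37.5%), against 23.9%, and in replicate 3 there were 16 (40%), against 22.6%. The share averaged 40.8% ± 3.82 for complex I genes and 24.4% ± 2.04 for all protein-coding genes (SD, n = 3). All 3 lists held 15 complex I genes (37.5%), against 18.7% of all genes. Relative to the optimal list, the sets of complex I genes differed only by ND-15 and ND-30, added in replicate 1, and by ND-B8, missing in replicate 2. The labels do not say whether replicates shared a day or a batch, and all lists were made with the same control.

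By signal, bound complex I genes ranked higher than bound genes in general. The median percent rank of their peaks in the replicates was 97.24, 96.76 and 96.55, against 90.49, 89.59 and 89.2 for all bound genes. The difference had the same direction in all 3 replicates, with means over the replicates of 96.85 ± 0.35 and 89.76 ± 0.66 (SD, n = 3). In the optimal list the median rank was 905 for complex I genes, against 3083.5 for all bound genes. The highest and lowest replicate ranks of a gene differed by a median of 1.38-fold for complex I, against 1.52-fold for the 3098 bound genes with a region in every replicate. By the saturating -log10 q-value the median percent rank was 88.92 for complex I genes and also 88.92 for all bound genes, a value set by ties, so the difference is seen by signal only. Genes are not replicates of a condition, and these medians are descriptions without a test.

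Summits at complex I promoters lay close to the nearest annotated start of the gene and mostly upstream of it. Their median distance to the nearest start of the gene was 63 bp, against 157 bp for all bound genes. They were upstream of the nearest start in 15 of 16 cases (93.8%), against 84.6% of all bound genes. ND-B16.6 was the exception, with its summit 41 bp downstream. At ND-B18, ND-24, ND-B22 and ND-13A the nearest start was an inner one, and the summit lay downstream of the gene's outermost start. The summits of the 3 replicates fell within a median of 24 bp of each other, against 41 bp for all bound genes. Each bound complex I gene had 1 optimal summit, in a peak 110 to 620 bp wide. Bound genes of complexes II to V had a median distance of 43 bp, 82.4% of summits upstream and a replicate spread of 33 bp. For cytoplasmic ribosomal protein genes these values were 27 bp, 80.6% and 27 bp, and for mitochondrial ones 189 bp, 96.2% and 47 bp. A short distance to the start was thus not particular to complex I.

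Many complex I genes share their promoter with another gene. Another protein-coding start lay within 500 bp for 20 of the 40 (50%), against 30.9% of all protein-coding genes. The share was 43.1% in complexes II to V, 40.2% in cytoplasmic and 74.0% in mitochondrial ribosomal protein genes. Of the 20 complex I genes with such a neighbour, 12 were bound (60%), against 37.6% of all genes with one. Of the other 20, 4 were bound (20%), against 16.7% of all genes without one. The share bound also went with the number of annotated starts, at 6 of 22 complex I genes with 1 start (27.3%) and 9 of 15 with 2 starts (60%), against 17% and 33.6% of all genes. Of the 3 complex I genes with more starts 1 was bound, against 56.0% of all such genes. The part of these features in the count of bound complex I genes was not tested.

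For 11 of the 16 bound genes no other protein-coding start was nearer to the summit (68.8%), against 76.4% of all bound genes. These 11 are 27.5% of the 40 complex I genes, against 17.7% of all protein-coding genes called by the same rule. The other 5 summits were nearer to a gene on the opposite strand. At ND-B15 the summit lay 226 bp upstream of ND-B15 and 2 bp from the start of CG10151. At ND-42 it lay 264 bp away and 35 bp from the start of Cchl, which encodes the enzyme that attaches haem to cytochrome c. The ND-MWFE summit was 154 bp away and 67 bp from TppII, a peptidase gene, and the ND-B8 summit was 98 bp away and 75 bp from Secp43. At ND-19 the starts of both genes lay 21 bp apart, with the summit 15 bp from ND-19 and 6 bp from CG30161. These 5 peaks cannot be assigned to one gene of each pair.

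Some neighbours across shared promoters also act in mitochondria. ND-ASHI stands opposite Fum1, a fumarase gene of the citric acid cycle, with the summit 241 bp from ND-ASHI and 281 bp from Fum1. ND-B16.6 stands opposite kdn, which encodes citrate synthase, with the summit 41 bp from ND-B16.6 and 269 bp from kdn. ND-MNLL starts at the same base as CG45089 on the same strand, so that peak counts for both. The summit at ND-51 lay 212 bp from the start of CG13994, and that at ND-24 lay 187 bp from corolla, a gene of the synaptonemal complex.

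**Figure D3:**
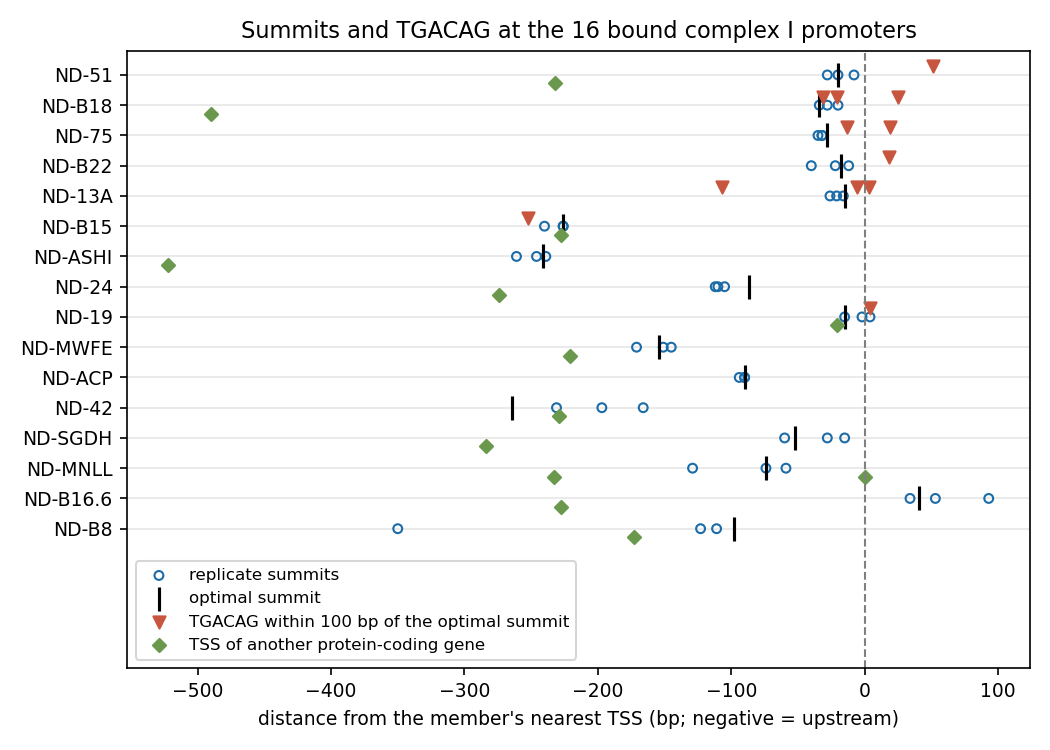
Distance (bp, negative upstream) from the nearest start of each of the 16 bound complex I genes to the summits of the 3 replicates (circles), the optimal summit (black bars), copies of TGACAG within 100 bp of it (red triangles) and starts of other protein-coding genes (green diamonds). Of the 12 copies of the word, 11 lie within 50 bp of an annotated start of the same gene, some at ND-51 and ND-13A counting from another of their starts than the one plotted, and at ND-B15 the word and summit lie beside the neighbouring start.

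TGACAG was found within 100 bp of the summit at 7 of the 16 bound complex I genes (43.8%), against 437 of 3234 bound genes overall (13.5%). The 7 were ND-51, ND-B18, ND-75, ND-B22, ND-13A, ND-B15 and ND-19, which held 12 copies, 5 on the strand of the gene and 7 on the other. The copies lay 3 to 92 bp from the summit. In the sequences printed above, the copies at ND-13A lay 18 and 9 bp downstream and 92 bp upstream of the summit. At ND-B18 the nearest copy lay 3 bp from it.

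Complex I peaks with the word mostly ranked above those without it. The 7 complex I peaks with TGACAG ranked 11 to 937 with a median of 111, and the 9 without it ranked 428 to 6435 with a median of 1787. The ranges overlapped in ND-ASHI, ND-24 and ND-19. Among all bound genes the medians were 1833 for the 437 with the word and 3212 for the 2797 without it, so the direction was the same. The share in the 250 strongest peaks was 24.5% of bound genes with the word and 5.26% of those without.

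Counted in promoters whether bound or not, from 250 bp before to 50 bp after any start, TGACAG was present in 13 of the 40 complex I genes (32.5%), against 15% of all protein-coding genes. Of these 13, 9 were bound, and of the 27 without the word 7 were bound. Among all genes 32.7% of those with the word and 21.5% of those without it were bound. More sequence was searched for genes with more starts, and 22 of 40 complex I genes had 1 start, against 10246 of 13945 genes. The promoter counts of words were not adjusted for this. The 4 unbound complex I genes with the word were ND-15 and ND-39, shown above, and the copies ND-51L2 and ND-B14.5AL. The longer word TGACAGCTG was within 100 bp of the summit at 4 of the 16 bound complex I genes (25%), against 61 of 3234 (1.89%). It was in the promoters of 5 of the 40 (12.5%), against 0.889% of all genes, and of the 124 genes that hold it 59.7% were bound, against 22.9% of the rest. ND-B14.5AL held it and had no region in any list. Since TGACAGCTG was chosen from these promoters, its share among them is a description only.

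Other promoter words were less frequent at these summits. TATCGATA, the DNA replication-related element, was within 100 bp at ND-19 and ND-B15, that is 2 of 16 (12.5%), against 7.73% of bound genes. In promoters it was present in 9 of the 40 (22.5%), against 10.2% of all genes. Of these 9, 5 were bound, against 33.5% of all genes with this word. GGTCACAC, the core of the element recognised by M1BP, was at the summit of ND-13A (6.25%), against 3.62% of bound genes. In promoters it was also present in 9 of the 40, against 8.71% of all genes. Of these 9, 4 were bound, against 32.9% of all genes with this word. GCGCATGC, the palindrome of the NRF-1 type, was in no complex I promoter, against 1.46% of all promoters. The E-box CACGTG was in the promoter of ND-PDSW alone, which was not bound, against 5.3% of all promoters. All words were searched on both strands, TGACAGCTG contains TGACAG, and a match is no measured site.

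By chromosome arm, for the arms reported here, 6 of 9 complex I genes on the X were bound, where 26.4% of all genes were. On 2L the count was 4 of 9, where 22.3% of all genes were bound. On 2R it was 3 of 8, with 21.5% of all genes, and all 3 summits there (ND-B15, ND-19 and ND-MWFE) were nearer to another gene. On 3L it was 2 of 9, with 23.9%, and on 3R it was 1 of 4, with 23%.

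Of 9 listed genes that assemble complex I, 4 were bound (44.4%). They were CIA30 at rank 162, CG17726 at 349, sicily at 390 and CG8067 at 1034, and each summit was nearest to its own gene. CIA30 ranked 197, 163 and 121 in the replicates. The assembly genes without an optimal peak were ECSIT, CG5569, CG11722, CG3270 and Nubpl. Sicily held TGACAG within 100 bp of the summit and the other 3 did not. Among the nuclear genes of complexes II to V, 17 of 51 were bound (33.3%), led by ATPsynE at rank 14, COX6B at 16 and ox at 41. The COX6B summit was nearer to the starts of CG33932 and Rpp20, and the ox summit was nearer to that of Dgkepsilon. The bound genes numbered 2 of 7 in complex II, 3 of 13 in complex III, 7 of 15 in complex IV and 5 of 16 in complex V. TGACAG was at the summit of 43.8% of bound complex I genes and 35.3% of bound genes of complexes II to V. The 250 strongest peaks included 12.5% of complex I genes and 13.7% of genes of complexes II to V.

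Against the 16 of 40 complex I genes, 67 of 92 cytoplasmic ribosomal protein genes were bound (72.8%), and 23.9% of the bound ones held TGACAG at the summit. Mitochondrial ribosomal protein genes, another set of nuclear genes for mitochondria, were bound in 26 of 73 cases (35.6%), and 7.69% of those held the word. The own start was nearest at 68.8% of bound complex I genes, against 23.1% of bound mitochondrial ribosomal genes. These lists were not tested against complex I, so no difference between them is claimed.

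**Figure D4:**
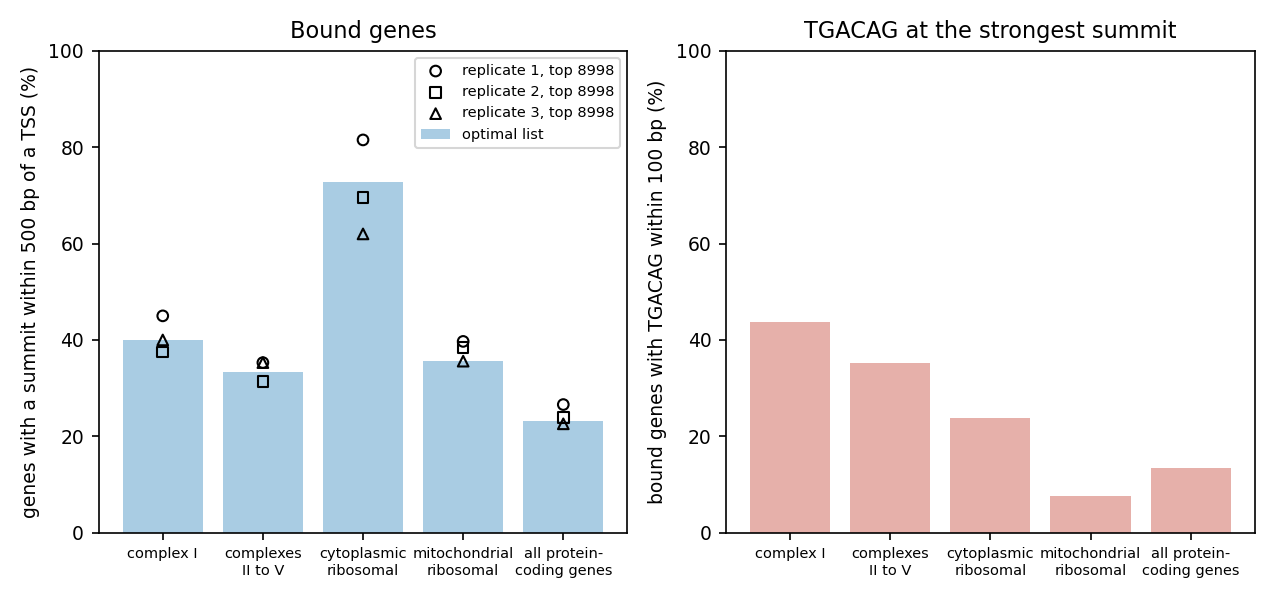
Left, percent of genes with a summit within 500 bp of a start in the optimal list (bars) and in the top lists of replicates 1, 2 and 3 (symbols). Right, percent of bound genes with TGACAG within 100 bp of the strongest summit; complex I stands at 40% and 43.8%, and all protein-coding genes stand at 23.2% and 13.5%.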

How the data were processed

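ChIP-seq peak lists of 3 biological replicates were used, not reads. Per the deposited file descriptions, the authors made each replicate list and the pooled list from alignments and 1 control shared by all, and the optimal list from these by an irreproducible discovery rate threshold. The optimal list equals the 8998 strongest pooled regions. Aligner, peak caller and their version numbers: not given in the sources used here. The deposited signal value per region is the authors' own, with no statement on depth scaling, and only ranks within one list were taken from it. The deposited -log10 q-value saturates, with 7035 of the 8998 optimal peaks at its maximum, and served as an alternative. Per the description the antibody was against GFP, while another label gives achi as its target.

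Genes and starts came from Ensembl release 115. Summits were assigned to every gene with a start within 500 bp, words were searched on both strands, and regions tied by signal shared the better rank, and those tied by -log10 q-value their mean rank. Of 77 symbols written for the other respiratory genes, 60 matched the annotation. The complex I genes, lists and words were chosen with earlier results of these data known. All 40 genes enter the counts; each bound one is named with ranks, and of the others those with a pooled region. Some of the genes without a peak are not reported here by name. Functions were tested on simulated data. Python 3.11.15, numpy 2.4.6 and pandas 2.3.3 were used. Lists in dm3 coordinates were not used.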

Additional observations from a re-analysis of the deposited data

How the results depend on the processing

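Of 30 alternatives over 5 results, 29 left the value within 1.5 times the count or within the replicate spread. The 30 include the pooled list cut to the length of the optimal list, which equals the optimal list and could only give the same count. For all bound genes the mean of the replicate medians was 89.76, and the median was 89.15 when each gene was first averaged over the replicates. The median percent rank of bound complex I genes by signal was 96.85, against that 89.15. Without 1 replicate it was 96.66 to 97, against 89.0 to 89.73. By the saturating -log10 q-value it was 88.92 for both, since tied regions share a rank. The planned ranking by the p-value column was not run, because it holds no p-values. The count of 16 bound genes stood against 23.2% of all protein-coding genes. With a 200 bp window it was 13 (without ND-42, ND-ASHI and ND-B15), against 15.7%. It was 17 with 1000 bp (adding ND-39), against 27.1%, and 17 at a q-value of 0.01 (adding ND-15), against 25.3%. When a summit went to its nearest gene only it was 11, against 18.3%. Without replicate 1 or 3 it was 15, losing ND-B8, against 19.1% and 19.9%. Without replicate 2 it was 16, against 19.6%. The quinone-reducing module stayed at 0 of 8 at a q-value of 0.01, and the 1000 bp window gave 1. The other alternatives for this count added no complex I gene, and most of them could only remove genes. For this module they therefore show nothing further. The top list of replicate 1 added ND-30 of this module. TGACAG was at 6 to 9 bound complex I genes over the windows, against 9.09% to 21.2% of all bound genes. TGACAGCTG was chosen after seeing the data. No paired analysis was possible because there is 1 group. The lists share 1 control, no flies without the tag were analysed here, depth is unknown, and a region missing from a list is not shown to be unbound.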
